A study of Homo sapiens with 4 samples.

Results

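The genes that encode the m6A writers were examined for m6A on their own transcripts in GES-1 cells, a gastric epithelial line, with and without the bile acid chenodeoxycholic acid (CDCA). The 9 genes were METTL3, METTL14, WTAP, VIRMA, RBM15, RBM15B, ZC3H13, CBLL1 and METTL16. A peak was taken as a member when its summit lay inside the hg19 span given for 1 of these genes. No measured value entered this rule, but the genes were chosen with earlier results of these data known. This gave 73 of 115281 listed peaks: 36 of 52188 in the CDCA list and 37 of 63093 in the control list. The series held 4 samples. They were an input library and an m6A immunoprecipitation (MeRIP) library from cells exposed to 100 µM CDCA for 48 h, and the same pair from cells without treatment. Only the peak lists of the 2 MeRIP libraries were used. The labels give no allele, clone or further agent for the cells. The lists hold peaks and no expression values, so cell identity could not be compared with marker genes.

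N6-methyladenosine (m6A) is placed on messenger RNA by a complex with METTL3 as its catalytic subunit and METTL14 as the partner that binds RNA. WTAP holds this pair in nuclear speckles and joins it to VIRMA, ZC3H13, CBLL1 (also called HAKAI) and the RNA-binding proteins RBM15 and RBM15B. METTL16 is a separate enzyme that methylates the U6 small nuclear RNA and hairpins in the MAT2A transcript. In transcripts at large, m6A is known to gather near stop codons and in long internal exons.

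Each condition had 1 library, so the conditions could not be tested against each other and no p-value is given. A peak's fold enrichment is its summit height over the local background, both as the authors' peak caller set them. The −log10 q is the caller's significance, which grows with depth as well as with enrichment. Every summit height was a multiple of 0.640 in the CDCA list or 0.862 in the control list (100% of peaks, within 0.02 steps), so each could be turned into a number of fragments. A fragment counted for a different height in each list, so fragment numbers cannot be compared directly between the lists. The background was recovered from height and fold. Intervals on a ratio of folds are approximate 95% intervals that treat fragments and background as Poisson counts. They cover counting error only, because reads without molecular identifiers are not independent molecules and libraries vary.

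Writer transcripts carried listed m6A peaks in both conditions, and only the strongest all overlapped between the lists. Where −log10 q reached 100, each of the 10 CDCA and 9 control writer peaks overlapped the other list. So did 91.2% of all CDCA and 87.6% of all control peaks of that strength. From 50 to 100, only 2 of 5 CDCA and 4 of 7 control writer peaks did. The most significant writer site of each list lay in RBM15. ZC3H13 held the most peaks, 15 in CDCA cells and 12 in control cells. METTL3 and CBLL1 had no peak common to the lists, and METTL3 had none in the CDCA list. More CDCA than control peaks were listed in 2 genes, fewer in 3 and the same number in 4. The 36 CDCA peaks were 97.3% of the 37 control peaks in number, while the whole CDCA list held 82.7% of the control number. With a −log10 q of at least 20 there were 21 CDCA and 29 control writer peaks, and with at least 50, 15 and 16. Neighbouring peaks share a transcript and a library, so no interval is given for these counts.

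**Figure D1:**
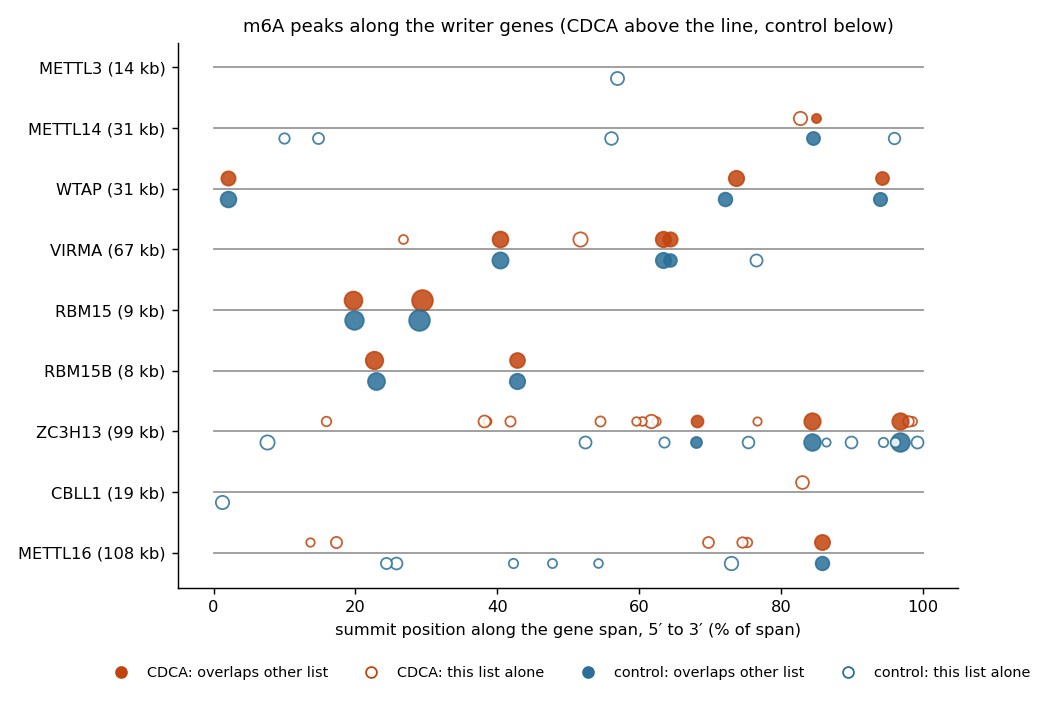
Summits of all 73 writer peaks along each gene span, read 5′ to 3′ in percent of the span, with CDCA above the line and control below. Filled circles overlap a peak of the other list, open circles do not, and circle area grows with −log10 q. The filled circles stand in vertical pairs, whereas ZC3H13 (99 kb) and METTL16 (108 kb) are scattered with open ones.

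The core pair of METTL3 and METTL14 carried peaks with a −log10 q of 55.4 or less. METTL3 (chromosome 14, 21966000 to 21980000, minus strand) had no listed CDCA peak inside its span, against 1 control peak at 21971692 to 21972136. This control peak had 123 fragments at its summit, a fold enrichment of 6.69 and a −log10 q of 49.6. Its fold lies close to the lowest fold listed anywhere, 6.0, and the CDCA list skips 2 peak numbers at this place. A skipped number stands for a peak that was numbered but is not in the list, and it gives no position. A CDCA peak at 21965346 to 21965553, with a fold of 6.02 and a −log10 q of 35.8, had its summit 580 bp beyond the 3′ end of the METTL3 span. RefSeq places TOX4 across that end of the gene, and the lists give no strand.

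METTL14 (chromosome 4, 119606000 to 119637000, plus strand) had 2 CDCA peaks and 5 control peaks. Both CDCA peaks lay between 82.7% and 84.9% of the way along the span. The stronger one, at 119631430 to 119631824, had 105 fragments, a fold of 14.2 and a −log10 q of 55.4. It was listed in CDCA cells alone, but a control peak began 236 bp further on. That control peak, at 119632060 to 119632374, had 68 fragments, a fold of 14.9 and a −log10 q of 50.2. Its partner by position was the weaker CDCA peak at 119632248 to 119632447, with 27 fragments and a fold of 7.03. The pair's fold ratio was 0.471 (0.123 to 1.81), CDCA over control, and this pair did not hold when summits had to lie within 100 bp. The same stretch of METTL14 was listed in both conditions, with summits at different places. The other 4 control peaks were spread from 9.99% to 95.9% of the span, with folds of 6.20 to 19.7 and no CDCA partner.

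WTAP, the adaptor of the complex, had 3 sites that overlapped between the lists and no other listed peak. WTAP (chromosome 6, 160147000 to 160178000, plus strand) had its first site at 160147476 to 160147852 in CDCA cells and 160147317 to 160147872 in control cells. There the fold was 9.02 in CDCA cells and 16.9 in control cells, with 224 and 234 fragments. The second site, at 160169689 to 160170036 in CDCA cells and 160169167 to 160170018 in control cells, went the other way, with folds of 14.2 and 8.17. Its summits lay 495 bp apart, the largest distance among the partnered writer peaks. This pair, too, did not hold when summits had to lie within 100 bp. The third site, near the 3′ end at 160175990 to 160176435 in CDCA cells and 160175953 to 160176404 in control cells, had folds of 6.24 and 6.43. The fold ratios were 0.534 (0.254 to 1.12), 1.74 (0.826 to 3.65) and 0.970 (0.503 to 1.87), so each interval included 1. The strongest WTAP peak was therefore the second site in CDCA cells, with a −log10 q of 141, and the first site in control cells, with 170.

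The WTAP site at the start of the span and a control-only peak at the start of CBLL1 were the writer peaks nearest to a gene start. The WTAP summits lay 641 bp (CDCA) and 623 bp (control) inside the span, and the CBLL1 summit 230 bp inside. The WTAP span is 1373 bp longer than the RefSeq gene and the CBLL1 span 1474 bp longer, so these summits may lie before the annotated start. RefSeq also places SOD2 across WTAP and CBLL1-AS1 across CBLL1. The sequences around both starts are shown because these peaks lay nearest to a gene start. The sequences come from RefSeq on GRCh38.p14, plus strand, and run from 250 bases before the gene start to 30 after it. The peaks could not be placed on them, because the lists use hg19, so whether a peak overlaps its window is not known.
WTAP, chr6:159726867-159727146: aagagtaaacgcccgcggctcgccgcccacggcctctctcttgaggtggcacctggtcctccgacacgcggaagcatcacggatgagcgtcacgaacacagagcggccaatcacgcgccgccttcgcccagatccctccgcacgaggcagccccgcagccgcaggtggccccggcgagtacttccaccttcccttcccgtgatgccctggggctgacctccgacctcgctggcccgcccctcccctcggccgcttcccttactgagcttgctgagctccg
CBLL1, chr7:107743892-107744171: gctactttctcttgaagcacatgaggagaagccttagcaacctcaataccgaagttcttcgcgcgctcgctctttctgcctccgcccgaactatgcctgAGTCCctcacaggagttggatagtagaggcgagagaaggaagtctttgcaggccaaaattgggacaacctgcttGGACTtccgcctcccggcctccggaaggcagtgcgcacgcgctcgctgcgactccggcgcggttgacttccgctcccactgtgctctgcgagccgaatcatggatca
Capitals mark GGACT, a common form of the m6A consensus, on either strand. The CBLL1 window held 1 match on each strand and the WTAP window none. Of all 35116 RefSeq gene starts, 41.6% held a match on either strand in the same window and 23.5% on the gene strand. Both CBLL1 matches lay in the 250 bases before the gene start, outside the annotated transcript, so they are not shown to be m6A sites of CBLL1. G and C made up 68.9% of the WTAP window and 58.2% of the CBLL1 window, against a median of 58.2% over all windows. RefSeq windows were found for 8 of the 9 genes.

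VIRMA, the large scaffold that guides methylation toward the 3′ ends of messages, had 5 CDCA and 4 control peaks, of which 3 in each list were common. VIRMA (chromosome 8, 95499000 to 95566000, minus strand) had its strongest peak at the same site in both conditions. It spanned 95538407 to 95539575 in CDCA cells (1169 bp, fold 8.64, −log10 q 182) and 95538704 to 95539429 in control cells (726 bp, fold 9.97, −log10 q 208). A second site at 95523285 to 95523954 in CDCA cells and 95523336 to 95523888 in control cells had folds of 8.86 and 11.0. Beside it, a site at 95522827 to 95523040 in CDCA cells and 95522812 to 95523038 in control cells had folds of 13.2 and 6.72. The 3 ratios were 0.867 (0.539 to 1.39), 0.806 (0.450 to 1.44) and 1.96 (0.855 to 4.50). The strongest single-library peak of all writers was a CDCA peak of VIRMA at 95531296 to 95531575, with 303 fragments, a fold of 6.28 and a −log10 q of 84.1. The closest control peak lay at a distance of 7129 bp, and the control list skips 1 number there. No VIRMA peak lay close to the 3′ end of the span, from which the nearest summit was 15808 bp away. A CDCA-only peak at 95566161 to 95566364, with a fold of 9.20 and a −log10 q of 16.4, had its summit 173 bp beyond the 5′ end of the span.

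RBM15, an RNA-binding protein that brings the complex to its sites, had the writer site with the highest fold and significance in both conditions. The RBM15 gene is short (chromosome 1, 110881000 to 110890000, plus strand), and its 2 sites stood next to each other in the 5′ part. The larger site spanned 110883210 to 110884944 in CDCA cells and 110883210 to 110884960 in control cells, with the same first base. It had 2842 fragments, a fold of 88.3 and a −log10 q of 2792 in CDCA cells, against 2226 fragments, 64.0 and 2672 in control cells. In scaled height it was slightly lower in CDCA cells, with a height ratio of 0.947. By −log10 q it ranked 58 among all CDCA peaks and 74 among all control peaks. The smaller site, at 110882599 to 110883034 in CDCA cells and 110882565 to 110882980 in control cells, had folds of 11.1 and 17.5. Its ratio of 0.638 (0.443 to 0.919) lay below 1 by more than counting error, while that of the larger site was 1.38 (0.794 to 2.39). A further site at the 3′ end missed the span by 7 bp in CDCA cells and 10 bp in control cells. It lay at 110889905 to 110890204 in CDCA cells and 110889883 to 110890202 in control cells, with folds of 6.86 and 6.85.

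RBM15B, the paralogue of RBM15, showed the same layout: 2 adjacent sites toward the 5′ side, both listed in both conditions. RBM15B (chromosome 3, 51428000 to 51436000, plus strand) overlaps DCAF1 in RefSeq. The first site spanned 51429633 to 51430733 in CDCA cells and 51429250 to 51430656 in control cells, with folds of 17.8 and 9.15. Its fold ratio of 1.95 (1.23 to 3.08) lay above 1 by more than counting error, yet the summit was not higher in CDCA cells. The height ratio was 0.862, and the background was 26 in CDCA cells against 60 in control cells. The second site, 51430904 to 51431617 in CDCA cells and 51430902 to 51431651 in control cells, had its summit at 51431420 in both. Its folds were 8.28 and 7.35, with a ratio of 1.13 (0.677 to 1.88).

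**Figure D2:**
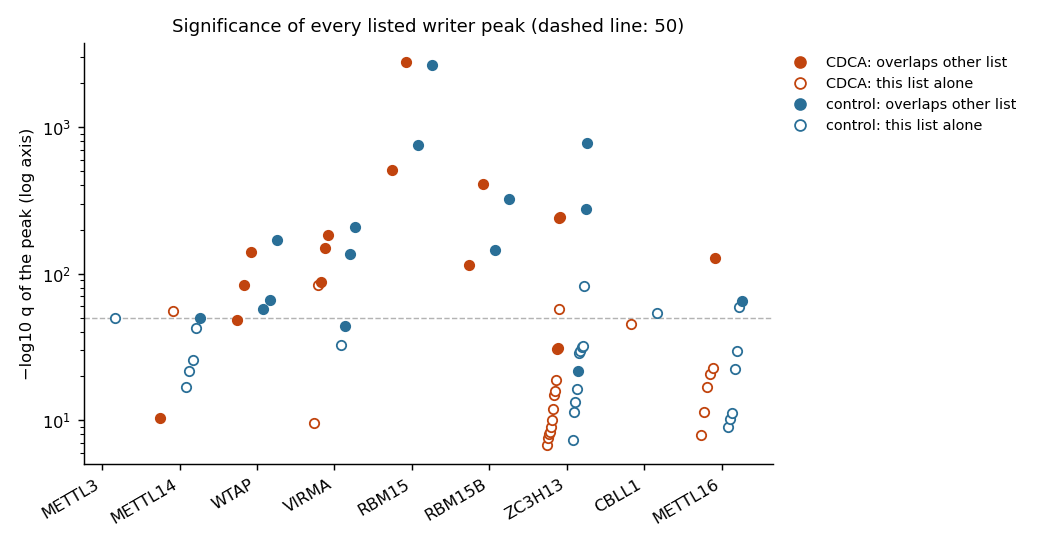
The −log10 q of every listed writer peak on a log axis, by gene, with CDCA to the left of control and a dashed line at 50. The RBM15 peaks reach 2792 in CDCA cells and 2672 in control cells, and open circles (listed in 1 library alone) stay at or below 84.1.

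ZC3H13, a zinc-finger protein that keeps the complex in the nucleus, had 2 strong sites and a long tail of weak ones. In ZC3H13 (chromosome 13, 46528000 to 46627000, minus strand) the site near the 3′ end had the largest difference in fold of all partnered writer peaks. It lay at 46530931 to 46531441 in CDCA cells, with 459 fragments, a fold of 16.4 and a −log10 q of 241. In control cells it lay at 46531066 to 46531418, with 705 fragments, a fold of 46.8 and a −log10 q of 777. The ratio was 0.349 (0.174 to 0.703). Height and background differed in opposite directions, with a height ratio of 0.483 and a background of 17 in CDCA cells against 12 in control cells. Over the whole lists, 5.16% of all partnered peaks had a lower ratio than this site.

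The second strong ZC3H13 site was alike in both conditions. It lay at 46543258 to 46543636 in CDCA cells and 46543303 to 46543649 in control cells, with summits 5 bp apart and folds of 15.3 and 19.4. The third partnered site, at 46559524 to 46559723 in CDCA cells and 46559468 to 46559667 in control cells, was weak, with 59 and 43 fragments and folds of 12.9 and 7.93. Its height ratio was 1.02. Among ZC3H13 peaks listed in 1 library alone, a single one in either list passed a −log10 q of 50. The CDCA one, at 46565885 to 46566086, had 68 fragments over the lowest background of its list and a fold of 25.5. The control one, at 46619129 to 46619779, had a fold of 16.1 and a −log10 q of 81.7, and it was the ZC3H13 peak closest to the 5′ end, at 7.49% of the span. The other 11 CDCA-only peaks had a −log10 q of 6.76 to 30.8, and the other 8 control-only peaks 7.38 to 32.0.

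CBLL1, the RING-finger subunit, had 1 peak in each list, at 82.9% of the span in CDCA cells and 1.21% in control cells. CBLL1 lies on chromosome 7, 107384000 to 107403000, plus strand. The CDCA peak, at 107399646 to 107399903, had 108 fragments, a fold of 10.01 and a −log10 q of 45.0. The control peak, at 107384107 to 107384313, had 49 fragments over the lowest background of the list, a fold of 24.0 and a −log10 q of 54.2. Neither list skips a number across the CBLL1 span, so no peak had been numbered there and left out. Just before the span, with summits 508 bp and 483 bp outside it, both lists held a further common site. It lay at 107383305 to 107383631 in CDCA cells and 107383422 to 107383674 in control cells, with folds of 17.4 and 10.1.

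METTL16 had 1 site in both lists and 11 peaks of 1 library alone, of which a control peak passed a −log10 q of 50. METTL16 (chromosome 17, 2308000 to 2416000, minus strand) had its common site at 2323020 to 2323546 in CDCA cells and 2322892 to 2323805 in control cells. The fold was 13.3 in CDCA cells and 6.55 in control cells, with 269 and 166 fragments. The ratio of 2.03 (1.02 to 4.05) was the highest of the partnered writer peaks, and the height ratio was 1.20. The background there was 12 in CDCA cells and 21 in control cells. A control-only peak at 2337145 to 2337626 had 53 fragments over the lowest background of the list, a fold of 26.0 and a −log10 q of 59.4, with 1526 bp to the closest CDCA peak. The remaining 5 CDCA-only peaks had a −log10 q of 7.94 to 22.7 and the remaining 5 control-only peaks 8.92 to 29.7. The summit nearest to the 3′ end of the METTL16 span lay 15314 bp from it. That span is 11826 bp longer than the RefSeq gene, and the side of the extra length is not known here. The distance to the 3′ end of the gene itself is therefore not known.

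Writer peaks were found in both lists more often than peaks at large, but within bands of like strength the shares could not be told apart at these numbers. Of the CDCA writer peaks, 15 of 36 (41.7%, exact Clopper-Pearson 95% interval 25.5 to 59.2) overlapped a control peak by at least 1 bp, against 22.2% of all CDCA peaks. Of the control writer peaks, 15 of 37 (40.5%, 24.8 to 57.9) overlapped a CDCA peak, against 18.2% of all control peaks. These intervals treat peaks as independent, yet ZC3H13 and METTL16 held 21 of the 36 CDCA and 19 of the 37 control peaks. Peaks of 1 gene share a transcript and a library, so the intervals may be too narrow and do not test the difference. In the band of 100 and over, all 10 CDCA and all 9 control writer peaks had a partner, against 91.2% and 87.6% of all peaks. Below 20, 1 of 15 CDCA and 0 of 8 control writer peaks had one, against 8.93% and 6.97%. A share of 0 of 8 allows up to 36.9%. In each of the 4 bands of −log10 q the interval of the writer peaks included the share over all peaks. The 15 pairs belonged to 7 genes, and all listed peaks of WTAP, RBM15 and RBM15B were among them.

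**Figure D3:**
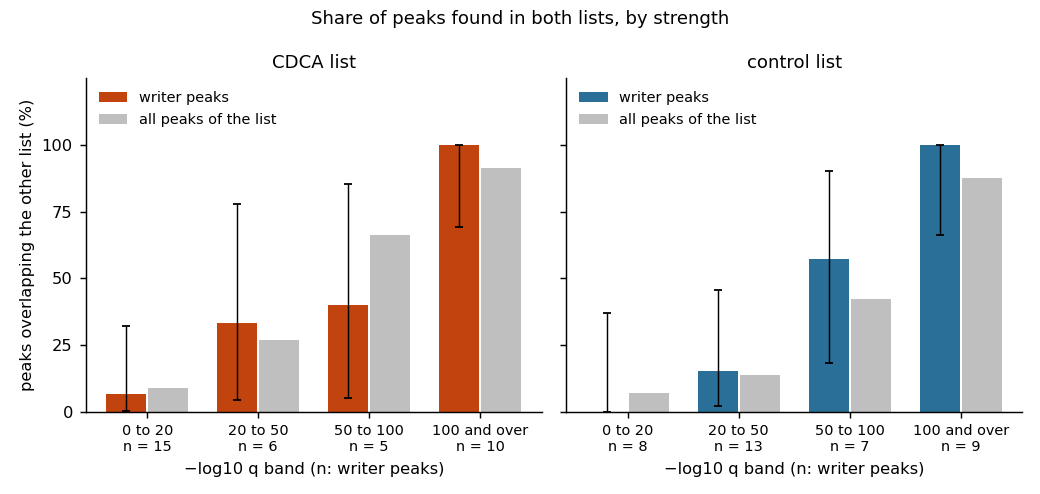
Percent of peaks that overlap the other list, in 4 bands of −log10 q, for writer peaks (coloured) and all peaks of the same list (grey), CDCA on the left and control on the right. Bars on the writer peaks are exact 95% intervals that treat peaks as independent. Both rise with strength, and at 100 and over all 10 CDCA and 9 control writer peaks are shared.

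Single-library writer peaks were mostly weak peaks of the longest genes. ZC3H13 and METTL16 span 207 of the 386 kb examined, and they held 17 of the 21 CDCA-only and 15 of the 22 control-only peaks. The CDCA-only peaks had a median length of 241 bp, a median fold of 7.26 and a median background of 1.16, against 446 bp, 12.9 and 17 for shared CDCA peaks. The control-only peaks had medians of 230 bp, 11.9 and 1.46, against 553 bp, 9.97 and 18 for shared control peaks. A number was skipped in the other list beside 16 of the 21 CDCA-only and 14 of the 22 control-only peaks. Over the whole lists the shares were 63.2% of CDCA-only and 73.2% of control-only peaks. Among the shared writer peaks a number was skipped beside 10 of 15 CDCA peaks, against 41.5% of all shared CDCA peaks, and beside 5 of 15 control peaks, against 46.8%. For the other 5 CDCA-only and 8 control-only peaks no peak had been numbered between the listed neighbours.

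The fold enrichment of the writer sites found in both conditions did not move in 1 direction. Among the 15 pairs it was at least 1.5 times higher in CDCA cells in 5, against 18.6% of all 11209 pairs, and at least 1.5 times lower in 4, against 27.2%. The median ratio was 0.970, beside 0.928 over all pairs, whose quartiles were 0.640 and 1.31. The 5 higher sites were the middle WTAP site, 1 VIRMA site, the first RBM15B site, the weak ZC3H13 site and the METTL16 site. The 4 lower ones were in METTL14, at the start of WTAP, at the smaller RBM15 site and at the 3′ ZC3H13 site. Counting intervals lay above 1 at 2 of the 15 sites, in RBM15B and METTL16, against 4.26% of all pairs, and below 1 at 2, in RBM15 and ZC3H13, against 5.70%. At METTL16 the lower limit was 1.02. Counted by summit height in place of fold, 1 writer pair was at least 1.5 times higher in CDCA cells, against 11.4% of all pairs. It was the middle WTAP site, whose summits lay 495 bp apart. By height, 2 writer pairs were at least 1.5 times lower, against 30.9%. By that measure the VIRMA, RBM15B, ZC3H13 and METTL16 sites were no longer 1.5 times higher, with height ratios of 1.26, 0.862, 1.02 and 1.20. Of the 7 genes, WTAP, VIRMA, RBM15 and ZC3H13 held sites on both sides of 1.

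**Figure D4:**
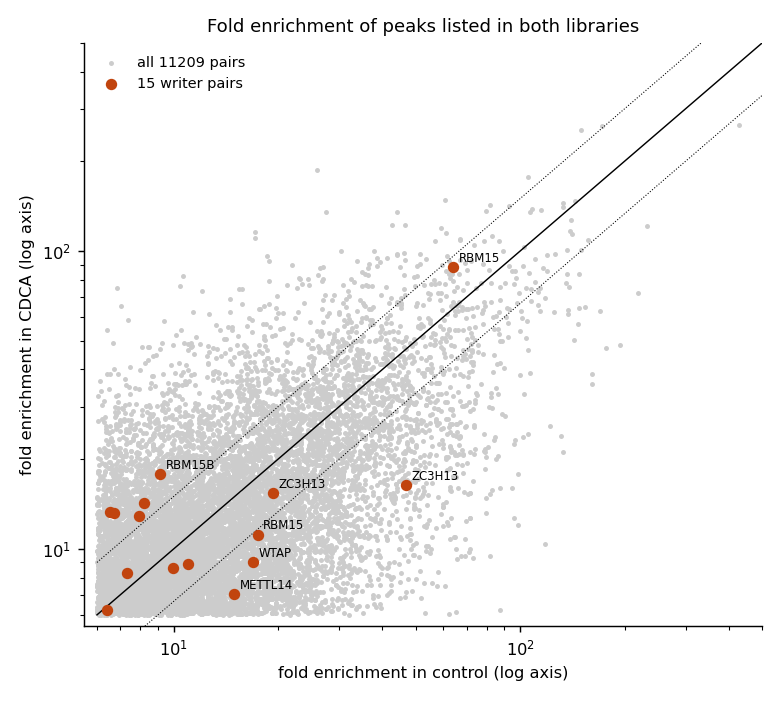
Fold enrichment in CDCA cells (vertical) against control cells (horizontal), both on log axes, for the 15 partnered writer peaks (coloured) and all 11209 pairs (grey). The solid line marks equal folds and the dotted lines a ratio of 1.5 either way. The writer sites fall on both sides, from 0.349 at ZC3H13 to 2.03 at METTL16. Writer pairs are named where the CDCA fold is at least 1.5 times lower or a fold is 15 or more.

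Fold enrichment combines the summit and the background, and both were compared apart. Summit heights were within 1.5 times of each other in 12 of the 15 pairs, against 57.8% of all pairs, and backgrounds in 8 of 15, against 56.4%. The median height ratio was 0.947, beside 0.849 over all pairs, and the median background ratio 0.857, beside 0.933. The background was lower in CDCA cells at all 5 sites with the higher CDCA fold, as at 87.9% of all such pairs. It was higher in CDCA cells at 3 of the 4 sites with the lower CDCA fold, against 62.1%, and lower at the METTL14 site (ratio 0.533). The background is computed from fold and height, so a choice of sites by fold partly fixes these counts. Heights are scaled within each library, in the steps given above. Backgrounds did not follow those steps: many were whole numbers, such as 69 (CDCA) and 51 (control) at the smaller RBM15 site. Which library set the background is not given in the sources used here. Its part in the differences was not tested.

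**Figure D5:**
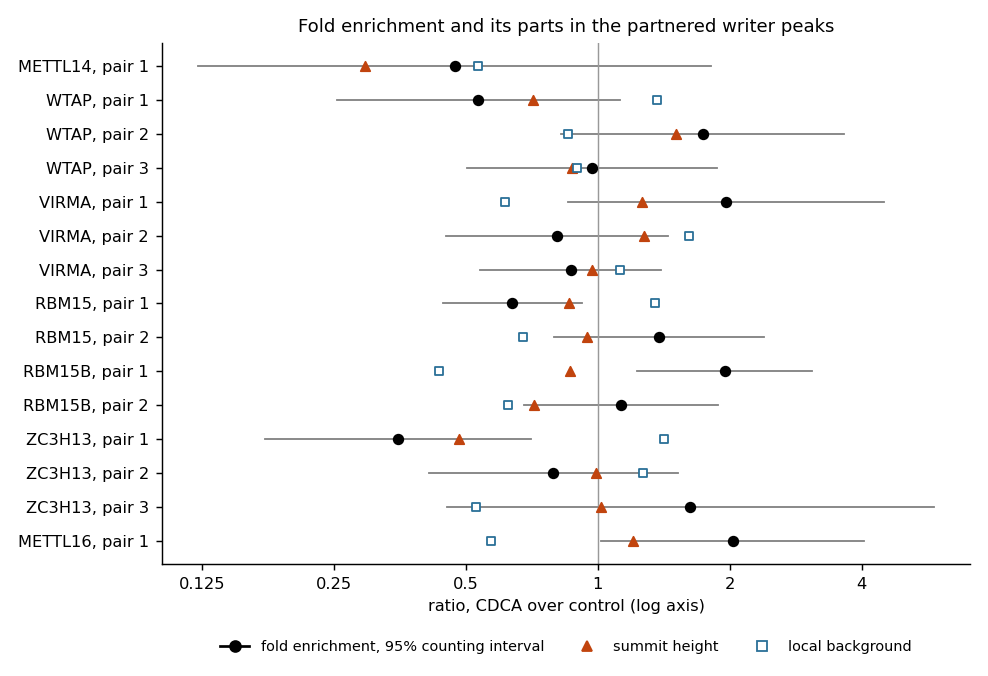
Ratio of CDCA over control, on a log axis, for fold enrichment (black, with approximate 95% counting interval), summit height (triangles) and local background (open squares) at the 15 partnered writer peaks, numbered along the chromosome within each gene. Between quartiles the height ratio runs from 0.786 to 1.11 and the background ratio from 0.593 to 1.31, and 4 intervals do not include 1.

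Other genes of the m6A pathway were counted in the same way. Of 11 such genes listed for comparison, 9 had spans that matched the RefSeq gene in chromosome, strand and length and were used. The 4 YTH readers YTHDF1, YTHDF2, YTHDC1 and YTHDC2, proteins that bind m6A, held 11 CDCA and 16 control peaks, and 4 in each list were common, 1 in every gene. The strongest site of these 4 was in YTHDF2, with a −log10 q of 1328 in CDCA cells and 1293 in control cells. The fifth reader, YTHDF3, was not among them because its strand was not checked. Its hand-entered span held 3 CDCA and 7 control peaks, of which 2 in each list were common, and its highest −log10 q of 3248 in CDCA cells and 3951 in control cells exceeded those of RBM15. The demethylase FTO was left out because its span differed from RefSeq in length, and it held 23 CDCA and 31 control peaks. The demethylase ALKBH5 had 1 CDCA peak (fold 6.09, −log10 q 66.9) and no control peak. The methyltransferases METTL5, ZCCHC4 and PCIF1 held 4 CDCA and 4 control peaks together, none of them common. Their highest −log10 q was 25.8 in CDCA cells and 30.5 in control cells. Over the whole lists, 22.2% of CDCA and 18.2% of control peaks were common, and 4 peaks are too few to set against these shares. MAT2A, the METTL16 target, had no listed peak in either condition.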

How the data were processed

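The deposited peak tables of the CDCA and control MeRIP libraries were used. Per the file headers, each gives a peak's start, end, summit, height, fold enrichment and significance, with positions in hg19 counted from 1. The authors' height is a signal (pileup), their fold enrichment a ratio, and the deposited significance is given on 2 scales, −log10 p-value and −log10 q-value. TopHat2 2.0.13, MACS2 2.1.0 and hg19 are named in the submitters' processing notes, without their roles. For inputs, filters and thresholds, nothing is given in the sources used here. Peaks were listed per library, not on pooled samples. No listed fold was below 6.0, and the weakest summits held 15 (CDCA) and 12 (control) fragments.

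From these values, summits were placed in the 9 spans, peaks were called shared at an overlap of at least 1 bp, and mutual best partners by overlap were paired. Background was height plus 1 over fold, minus 1. Named with values were the strongest peak of each gene, every pair, and single-library peaks of −log10 q 50 or more; peaks just outside spans were added after their values were seen. The members and lists were chosen with earlier results of these data known. Spans of the comparison genes were entered by hand and used where RefSeq (GRCh38.p14) gave the same chromosome, strand and a length within 2 kb. Exons could not be assigned, as an hg19 annotation was not used here. Overlap and span membership were tested on simulated data in which each peak had at most 1 possible partner. The choice between rival partners was not tested. Software was scipy 1.17.1, pandas 2.3.3, numpy 2.4.6 and matplotlib 3.10.9 under Python 3.11.15. Alternatives covered thresholds, overlap, span edges and ranking.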

Additional observations from a re-analysis of the deposited data

How the results depend on the processing

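The number of writer peaks changed by over 1.5 times with most thresholds. At a −log10 q of at least 20 there were 21 CDCA peaks, while the 29 control peaks stayed within 1.5 times. For CDCA and control, 15 and 16 had a −log10 q of at least 50, and 16 and 19 had a fold of at least 10. The share found in both lists, with both lists filtered, was 66.7% of CDCA and 48.3% of control peaks at a −log10 q of at least 20. It was 73.3% and 68.8% of CDCA and control peaks at 50, and 25.0% and 21.1% at a fold of at least 10. Lists of equal size kept the counts and shares within their limits, and stricter or looser overlap kept the shares. Spans widened by 1 kb kept the counts within 1.5 times, at 40 CDCA and 39 control peaks. The shares were not computed with wider spans. The strongest peak of a gene was the same site in 4 genes by −log10 q and in 2 by fold enrichment. By summit height in place of fold, the first RBM15B site turned round, with a ratio of 0.862. Sites with fold ratios within 1.5 times also crossed 1. These were the second VIRMA site (0.806 by fold, 1.27 by height), the larger RBM15 site (1.38 and 0.947) and the second RBM15B site (1.13 and 0.714). The cause was not tested for these changes. No paired analysis was possible because there was 1 library per condition. The depth of the libraries is known only as fragments at summits.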
